A study of Mus musculus with 4 samples.

Results

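The genes described here are 53 genes of DNA replication and S phase, chosen by name, in cultured mouse lung fibroblasts of 2 genotypes, labelled KrasD12 and WT. A gene was read from array rows whose platform annotation gives exactly 1 symbol, and where a gene had several such rows the brightest, by its mean over the 4 samples, was taken. All 53 members had a row, out of 19938 genes tested. The members were grouped by role into licensing of origins (15 genes), origin firing (8), polymerases with the single-strand binding protein RPA (12), clamp and Okazaki fragment processing (8), nucleotide supply (5) and copying of chromatin (5). 

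Untreated primary fibroblasts, grown out of the lungs of mice aged 3 to 4 weeks, were measured on 4 Affymetrix mouse arrays, 1 per sample. Both KrasD12 samples, A and B, carry 1 line number in their titles, and the design text names that genotype SKY. Both WT samples, also A and B, carry another line number and are wild type per the labels. Both groups share the culture in serum-containing medium, which the growth protocol describes as a myofibroblast culture. Each genotype is therefore 1 line, and the 2 cannot be told apart. The labels name neither what drives the altered allele nor whether A and B were separate cultures, and no value here reads the allele itself. The p-values measure only the spread between A and B, which may be technical.

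DNA replication is prepared in G1, when the origin recognition complex ORC, with Cdc6 and Cdt1, loads the ring-shaped helicase MCM2-7 onto DNA. In S phase the kinase Cdc7 with its partner Dbf4, and Cdc45 with the GINS complex, switch the helicase on, and the polymerases copy the strands with the sliding clamp PCNA. Nucleotides come from ribonucleotide reductase and from the thymidylate enzymes, and many of these genes are textbook targets of E2F transcription factors, which are restrained by the retinoblastoma protein until cells pass into S phase.

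All 10 fibroblast markers, collagens and Pdgfra among them, lay above the dim level in both groups. That level, the 95th percentile of rows for olfactory and vomeronasal receptors, was 5.15 on the log2 scale. Their median level was 12.045 in KrasD12 and 12.082 in WT, and 5 of them were called on both scalings described below: Col1a1 (-0.595), Pdgfrb (-0.495) and Thy1 (-0.31) were lower in KrasD12 and Fn1 (0.44) and Pdgfra (0.26) higher. Of 8 epithelial markers 6 lay above the dim level in KrasD12 (3.23 to 6.755) and 4 in WT (3.02 to 6.265). Sftpc and Sftpb, surfactant genes, were higher in KrasD12 by 0.92 and 0.70 on the deposited values and called on both scalings. Sftpc lay below the dim level in WT (4.39 and 4.30) and just above it in KrasD12 (5.30 and 5.23). Of 6 measured leukocyte markers 2 lay above the dim level in KrasD12 (4.19 to 6.595) and 3 in WT (3.565 to 6.105). As deposited 5 of the 6 were higher in KrasD12. Cd68 (0.71) and Itgam (0.685, dim in both groups) were called on that scaling only, and Adgre1 was called higher on both though dim in every sample. Lyz2, lysozyme, stood at 4.56 and 4.70 in KrasD12 against 6.01 and 6.20 in WT and was called lower on both. Of 6 endothelial markers 2 and 1 lay above the dim level, of 4 mesothelial ones 3 and 3, and 0 of these 10 were called on both scalings. The part of these markers in the results was not tested. The level of a replication transcript in a culture depends on how many cells are in S phase as well as on RNA per cell, and fewer such cells and less RNA per cell cannot be told apart here.

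Between KrasD12 and WT the replication genes split. Rrm2, Uhrf1, Prim1, Pcna, Tk1, Rrm1, Mcm5, Prim2, Rpa2 and Orc2 were lower in KrasD12, and Cdc7, Pold3, Mcm2, Mcm4 and Gins2 were higher. Of the 2 array rows of Tk1 only the brighter was called lower as deposited, and the other differed by 0.01 (0.005). Differences were small: the members that fell lay 0.265 to 1.12 log2 units lower, or 1.2- to 2.17-fold, and those that rose 0.475 to 0.73 units higher, or 1.39- to 1.66-fold. As deposited, only Rrm2 of the 53 members differed by 2-fold or more and 46 differed by less than 1.5-fold, while after quantile normalization Rrm2 and Uhrf1 passed 2-fold. The exact permutation test of 2 samples against 2 cannot give a two-sided p below 0.333, so single genes were tested with limma across all genes.

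The words rose and fell are kept for genes that limma called (adjusted p under 0.05) with 1 sign on both scalings: the values as deposited, and those values after quantile normalization, which gives the 4 columns 1 distribution. The deposited columns of KrasD12 lie higher, with medians of 6.24 and 6.26 against 5.90 and 5.91 in WT. Genes with means of 6 to 7, where 19 members lie, had a median difference of 0.315 on the deposited values, and those with means of 7 to 8, which hold 20 members, one of 0.205. By the rule 5 members rose (9.43%) and 10 fell (18.9%), beside 22.4% of all genes that rose and 11.5% that fell. Among the 8519 genes with means of 6 to 9, where most members lie, 24.4% rose and 15% fell. On the deposited values alone limma called 18 members higher (34.0%) and 10 lower (18.9%), beside 50.1% and 11.9% of all genes. After quantile normalization it called 5 higher (9.43%) and 16 lower (30.2%), beside 22.5% and 24.4%. The groups did not overlap for 27 members with KrasD12 higher (50.9%) and 12 with KrasD12 lower (22.6%), beside 64.3% and 18.7% of all genes. Of the 8519 genes with means of 6 to 9, 5223 had no overlap with KrasD12 higher and 1933 with KrasD12 lower. The median difference of the members was 0.145 as deposited, against 0.26 for all genes and 0.215 for genes with means of 6 to 9, and after quantile normalization it was -0.15 against 0.00 (-0.00375) for all genes. Thus the sign of the median turned with the scaling, while on either scaling it lay below that of all genes.

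For the 15 members called on both scalings the groups did not overlap, so leaving out any 1 sample could not turn their sign. Their calls did depend on the samples. Without KrasD12 A 0 members rose and 6 fell, beside 1762 and 1086 of all genes, and without KrasD12 B 0 rose and 3 fell, beside 1434 and 755. Without WT A or WT B the calls were lost, for the members as for all genes. 

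**Figure D1:**
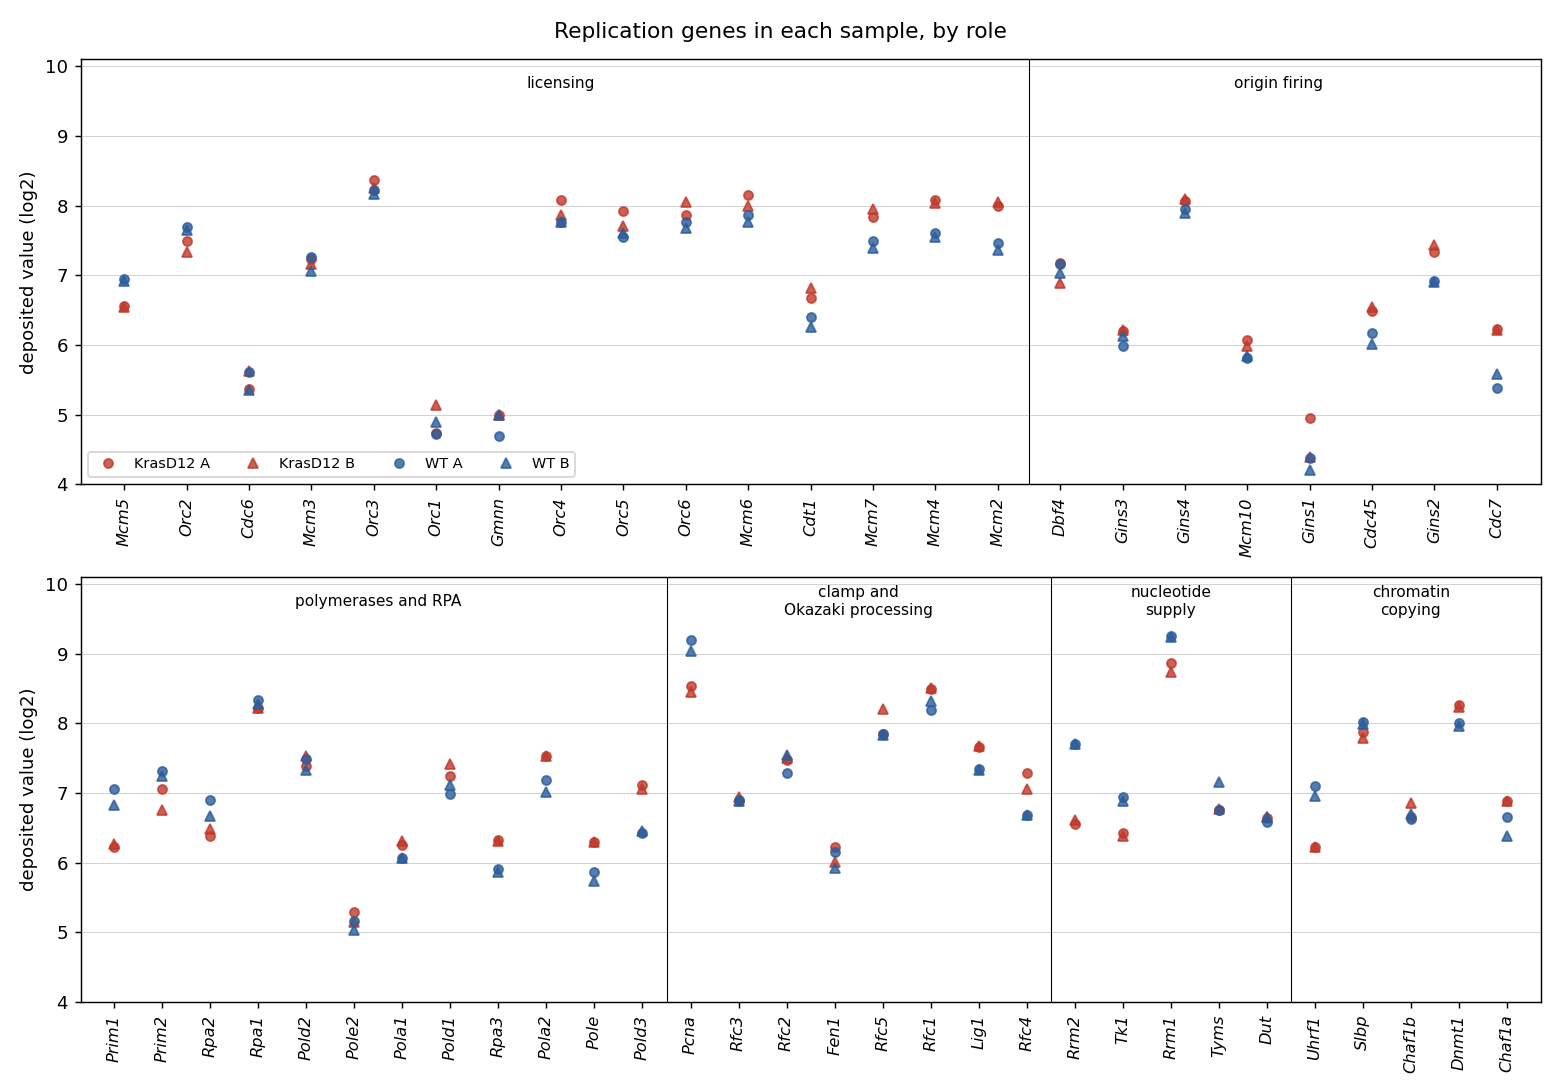
Deposited log2 value (vertical axis) of each of the 53 members in the 4 samples, grouped by role and ordered within a role by the difference KrasD12 minus WT. Red marks are KrasD12 and blue marks WT, circles are sample A and triangles sample B. Rrm2 shows the widest gap, with KrasD12 at 6.55 and 6.61 and both WT samples at 7.70.

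**Figure D2:**
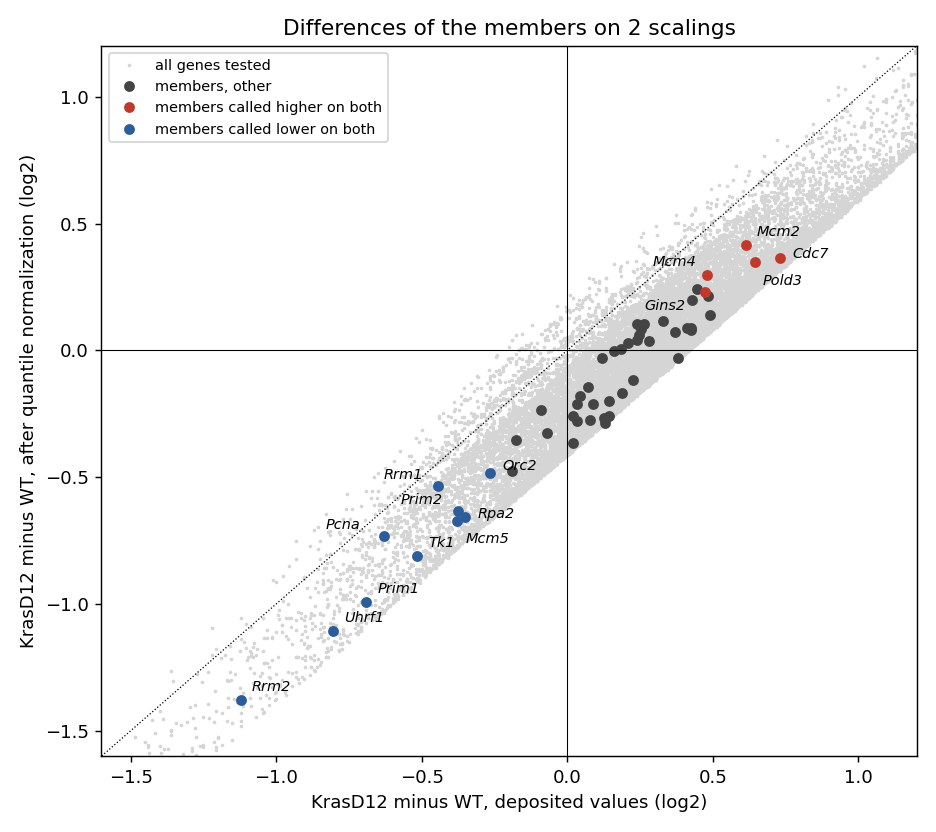
Difference KrasD12 minus WT on the deposited values (horizontal axis, log2) against the difference after quantile normalization (vertical axis, log2), for all genes tested (grey), the 5 members called higher on both (red), the 10 called lower on both (blue) and the other 38 members (dark grey). All 53 members lie below the dotted line of equal values, with a median difference of 0.145 on the horizontal and -0.15 on the vertical axis.

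Promoters are shown for 10 of the 12 genes that are the 2 members of each role with the widest differences, called ones first (Mcm4 and Gins2 had no window), as a reference for genes that moved apart within 1 programme. RefSeq windows (build GRCm38.p6, 250 bases before to 50 after a start) were held for 45 of the 53 members. Printed are the 120 bases before the most upstream start, 5′ to 3′ on the gene's strand, with capitals for a word of the E2F core (TTCCCGC or TTGGCGC), the CCAAT box (CCAAT) or the CHR element (TTTGAA), the last a word known from cell cycle promoters, each read on both strands.
Rrm2, chr12:24708134-24708253, + strand: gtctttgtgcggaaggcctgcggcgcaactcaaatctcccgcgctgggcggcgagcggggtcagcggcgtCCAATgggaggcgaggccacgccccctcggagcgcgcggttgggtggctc
Uhrf1, chr17:56303217-56303336, + strand: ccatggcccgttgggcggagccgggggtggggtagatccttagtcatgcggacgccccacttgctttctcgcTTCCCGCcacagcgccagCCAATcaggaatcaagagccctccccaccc
Prim1, chr10:128015095-128015214, + strand: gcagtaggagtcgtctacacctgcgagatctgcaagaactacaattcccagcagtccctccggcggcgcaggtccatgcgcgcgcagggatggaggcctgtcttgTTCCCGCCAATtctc
Pcna, chr2:132253181-132253300, - strand: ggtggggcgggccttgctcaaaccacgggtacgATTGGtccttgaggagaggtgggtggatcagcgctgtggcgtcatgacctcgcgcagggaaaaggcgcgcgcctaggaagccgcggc
Tk1, chr11:117826015-117826134, - strand: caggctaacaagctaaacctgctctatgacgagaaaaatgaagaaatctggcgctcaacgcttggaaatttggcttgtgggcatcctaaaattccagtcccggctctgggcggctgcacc
Mcm2, chr6:88898781-88898900, - strand: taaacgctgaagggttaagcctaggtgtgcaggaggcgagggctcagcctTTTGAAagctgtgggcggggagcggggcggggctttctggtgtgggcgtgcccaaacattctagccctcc
Cdc7, chr5:106964202-106964321, + strand: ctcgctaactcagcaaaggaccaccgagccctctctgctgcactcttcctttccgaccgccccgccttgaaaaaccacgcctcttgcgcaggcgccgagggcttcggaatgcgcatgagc
Pold3, chr7:100121503-100121622, - strand: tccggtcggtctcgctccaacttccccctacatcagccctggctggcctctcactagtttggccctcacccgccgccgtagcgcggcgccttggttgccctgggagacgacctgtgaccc
Rfc4, chr16:23127731-23127850, - strand: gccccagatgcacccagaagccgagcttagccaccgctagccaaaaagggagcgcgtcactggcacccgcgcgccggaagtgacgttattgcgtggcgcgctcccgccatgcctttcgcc
Chaf1a, chr17:56040296-56040415, + strand: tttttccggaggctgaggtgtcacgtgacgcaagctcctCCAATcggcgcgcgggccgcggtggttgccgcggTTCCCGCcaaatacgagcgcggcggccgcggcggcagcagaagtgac

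Over the whole windows, an E2F core occurred in 26 of the 45 members with a window (57.8%), beside 7.79% of 27025 genes with one. It was present in 2 of 3 members that rose, 5 of 9 that fell and 19 of 33 that were called in neither direction. The 9 include Tk1, whose call depends on the row read. A CCAAT box occurred in 27 of the 45 (60.0%), beside 41.1% of all genes, in 8 of 9 that fell and in 1 of 3 that rose. The CHR word was found in 8 of the 45 (17.8%), beside 20.2% of all genes, in 2 of 3 that rose and 0 of 9 that fell. In Prim1 the E2F core and the CCAAT box share a base. The E2F cores of Pold3 and Rfc4, and the E2F core and CHR word of Cdc7 in the window of this start, lie after the start and are not printed. Also not marked are a CCAAT box of Mcm2 before the printed bases and CCAAT boxes of Uhrf1 across and after the start. These matches are descriptions of letters, and absence from a window says only that the letters are not there.

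Nucleotide supply was the role with the lowest median, -0.445 as deposited and -0.53 once quantile normalized. Of its 5 members 3 fell and 0 rose, beside 11.5% and 22.4% of all genes, and Tk1 is among the 3 by its brighter row only. No role was tested against these shares. Rrm2 encodes the small subunit of ribonucleotide reductase, the enzyme that makes deoxyribonucleotides. It stood at 6.55 and 6.61 in KrasD12 A and B and at 7.70 in both WT samples, so KrasD12 lay well below WT without overlap. It fell by 1.12 ± 0.07 log2 units (the SE that limma moderates, here and after each ± that follows, n = 2 per group), or 2.17-fold, with a limma adjusted p of 0.000494 and a quantile difference of -1.38. Rrm1, the large subunit of the same enzyme, stood at 8.87 and 8.73 in KrasD12 and 9.25 and 9.24 in WT. It was likewise lower in both KrasD12 samples, by 0.445 ± 0.08 (limma adjusted p = 0.00561), a smaller step than that of Rrm2.

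Tk1, thymidine kinase of the salvage route, was read from 2 rows that went different ways. Its brighter row stood at 6.42 and 6.38 in KrasD12 and 6.94 and 6.89 in WT, a fall of 0.515 ± 0.07 (limma adjusted p = 0.00242). Its other row stood at 6.21 and 6.31 against 6.35 and 6.16, so the groups overlapped there, with a difference of 0.01 (0.005). After quantile normalization that row was also called lower (-0.33, limma adjusted p = 0.0269 over every row), so the call of Tk1 on the deposited values, though not its direction after quantile normalization, depends on the row. The mean of both rows differed by -0.255 (limma adjusted p = 0.0298). Tyms, thymidylate synthase, stood at 6.76 and 6.77 in KrasD12 and 6.75 and 7.16 in WT. Only WT B was high, and the difference of -0.19 was not called on the deposited values (95% interval -0.545 to 0.165), though the quantile difference of -0.48 was. Dut, which clears dUTP, differed by 0.035 (interval -0.136 to 0.206), and by -0.28 after quantile normalization, where it was called.

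The annotation held 2 rows for 4 members, Pcna, Rpa3, Slbp and Tk1, and for each the 2 rows were set among different chromosomes. Of the 20 rows nearest in row number to the brighter Tk1 row, 0 were genes of chromosome 11, where the gene table (GRCm38.p6) places Tk1, and 15 were genes of chromosome 8. For the dimmer Tk1 row all 20 were genes of chromosome 11. Rpa3, the smallest RPA subunit, showed opposite differences: the row used, with 18 of 20 neighbours on chromosome 1, stood at 6.32 and 6.31 in KrasD12 and 5.91 and 5.87 in WT. Its other row, with 19 of 20 neighbours on chromosome 6, where Rpa3 lies, stood at 5.80 and 5.57 against 5.92 and 6.03. The first gave 0.425 and the second -0.29, without overlap of the groups in either row. After quantile normalization the row used differed by 0.08 and was not called, and the row on chromosome 6 differed by -0.65 and was called lower (limma adjusted p = 0.00392 over every row). No direction is given for Rpa3. For Slbp, the histone mRNA stem-loop binding protein, both rows were lower in KrasD12, by 0.175 and 0.115, and were called only after quantile normalization (-0.35 and -0.32). For Pcna both rows held the same 4 values. The accessions listed for the rows of a gene overlap, and how the array shares probes between these rows was not tested.

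**Figure D3:**
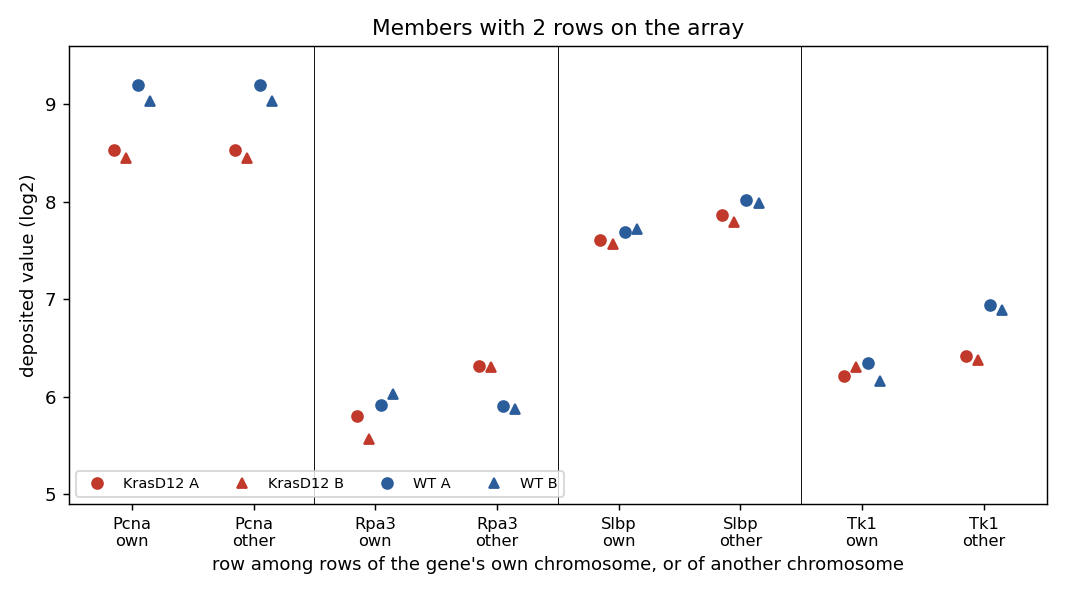
Deposited log2 value (vertical axis) in the 4 samples for both rows of Pcna, Rpa3, Slbp and Tk1 (horizontal axis). "Own" is the row whose neighbours in row number are genes of the gene's own chromosome and "other" the row among genes of another chromosome, and red marks are KrasD12, blue marks WT, circles A and triangles B. In Rpa3 the order of the groups turns between the rows, and in Tk1 the groups part in the other row only.

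Licensing held both directions, with 2 of 15 members risen, 2 fallen and 11 without a call on both scalings. Over all genes 22.4% rose and 11.5% fell. The 6 subunits of the MCM2-7 helicase did not move as 1. Mcm2 stood at 8.0 and 8.05 in KrasD12 and 7.46 and 7.36 in WT, a rise of 0.615 ± 0.07 (limma adjusted p = 0.00187, quantile difference 0.42). Mcm4 stood at 8.08 and 8.04 against 7.61 and 7.55, a rise of 0.48 ± 0.07 (limma adjusted p = 0.00303, quantile difference 0.30). Both KrasD12 samples were thus above both WT samples in these subunits. Mcm5 showed the opposite order, with 6.56 and 6.55 in KrasD12 and 6.95 and 6.92 in WT, a fall of 0.38 ± 0.07 (limma adjusted p = 0.00534, quantile difference -0.67).

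Mcm7 was called on the deposited values only, with a difference of 0.445 and one of 0.24 after quantile normalization (limma adjusted p = 0.0548). Mcm6 differed by 0.255 (limma adjusted p = 0.0505) and Mcm3 by 0.035, or 0.08 and -0.21 on the quantile scale. A difference between subunits within the same arrays does not depend on how a column was centred. The gap between Mcm2 and Mcm5, set to 0 at the WT mean, was 0.965 and 1.03 (1.025) in KrasD12 A and B and 0.035 and -0.035 in WT A and B. It was 0.995 as deposited, 1.09 after quantile normalization and 1.09 after cyclic loess normalization. These subunits were picked as the extremes of their complex, so the gap is a description with no test.

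Of the 6 ORC genes, which mark the origins, 1 fell and 0 rose. Orc2 stood at 7.49 and 7.33 in KrasD12 and 7.70 and 7.65 in WT, a fall of 0.265 ± 0.08 (limma adjusted p = 0.0364). Its KrasD12 samples lay below WT, but it is the smallest fall called. The other ORC genes ran from 0.12 (Orc3) to 0.245 (Orc6) and were called on neither scaling, and Orc1 lay below the dim level at a mean of 4.88. Cdc6 and Cdt1 are the loaders of the helicase. Cdc6 stood at 5.37 and 5.63 in KrasD12 and 5.61 and 5.35 in WT, so the groups overlapped fully, at a difference of 0.02 (95% interval -0.306 to 0.346), while after quantile normalization it was called lower (-0.36, limma adjusted p = 0.0431). Cdt1 stood at 6.67 and 6.82 against 6.41 and 6.26, a difference of 0.41 that was called on the deposited values (limma adjusted p = 0.0125) and not after quantile normalization (0.09). Gmnn, the inhibitor of Cdt1, lay below the dim level at 4.92 and differed by 0.145.

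In origin firing 2 of 8 members rose and 0 fell, beside 22.4% and 11.5% of all genes. Cdc7, the kinase that phosphorylates the loaded helicase, stood at 6.23 and 6.21 in KrasD12 and 5.39 and 5.59 in WT. Both KrasD12 samples were higher, by 0.73 ± 0.09 or 1.66-fold (limma adjusted p = 0.00201), and by 0.36 after quantile normalization. Its activating partner Dbf4 stood at 7.18 and 6.89 in KrasD12 and 7.17 and 7.04 in WT. These groups overlapped, and the difference of -0.07 (95% interval -0.363 to 0.223) was not called, nor was that of -0.33 after quantile normalization (limma adjusted p = 0.061).

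Gins2, a subunit of the GINS complex that joins Cdc45 and MCM2-7 in the active helicase, stood at 7.34 and 7.43 in KrasD12 and 6.92 and 6.90 in WT. It rose by 0.475 ± 0.07 (limma adjusted p = 0.00342), but by 0.23 after quantile normalization, where it passed narrowly (limma adjusted p = 0.0463). Gins4 (0.16) and Gins3 (0.145) were called on neither scaling, and Gins1 lay below the dim level at 4.49 (4.485), with KrasD12 A at 4.96 and the other samples at 4.21 to 4.39. Cdc45 differed by 0.425 on the deposited values, where it was called, and by 0.09 after quantile normalization. Mcm10, which helps to activate the helicase, differed by 0.19 and by -0.17 after quantile normalization, with no call on either.

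Among the polymerases and RPA 1 of 12 members rose and 3 fell, beside 22.4% and 11.5% of all genes. Polymerase alpha with primase starts each new strand, and its 4 genes parted by subunit. Prim1, the catalytic primase subunit, stood at 6.23 and 6.27 in KrasD12 and 7.05 and 6.83 in WT, a fall of 0.69 ± 0.09 or 1.61-fold (limma adjusted p = 0.00271, quantile difference -0.99). Prim2, the other primase subunit, stood at 7.05 and 6.76 against 7.32 and 7.24, a fall of 0.375 ± 0.11 (limma adjusted p = 0.0326). Both KrasD12 samples were below both WT samples in either gene, though KrasD12 A of Prim2 came near to WT. Pola1, the catalytic polymerase subunit, stood at 6.26 and 6.31 against 6.06 and 6.06, and Pola2 at 7.53 and 7.53 against 7.18 and 7.02. They were higher by 0.225 and 0.43 on the deposited values, where both were called, and neither was called after quantile normalization (-0.12 (-0.115) and 0.20). The gap between Pola2 and Prim1, set to 0 at the WT mean, was 1.14 and 1.10 in KrasD12 and -0.03 and 0.03 in WT. As deposited that gap was 1.12, and 1.19 with quantile normalization, the widest of the 11 complexes compared. Each gap joins the extremes of its complex, and the complexes hold unlike numbers of genes, so the ranking is a description with no test.

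Pold3, an accessory subunit of the lagging-strand polymerase delta, stood at 7.12 and 7.06 in KrasD12 and 6.43 and 6.46 in WT. It was higher in both KrasD12 samples, a rise of 0.645 ± 0.07 or 1.56-fold (limma adjusted p = 0.00139, quantile difference 0.35). The catalytic subunit Pold1 differed by 0.28 and Pold2 by 0.045, and on the quantile scale by 0.04 and -0.18, without a call there. Pole, the catalytic subunit of the leading-strand polymerase epsilon, stood at 6.29 in both KrasD12 samples and at 5.86 and 5.74 in WT. Its difference of 0.49 was called on the deposited values and not after quantile normalization (0.14). Pole2 differed by 0.125. Rpa2, the middle subunit of RPA, fell by 0.35 ± 0.10, from 6.90 and 6.67 in WT to 6.38 and 6.49 in KrasD12 (limma adjusted p = 0.0291), and Rpa1, the large subunit, differed by -0.09, or by -0.24 and called after quantile normalization.

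**Figure D4:**
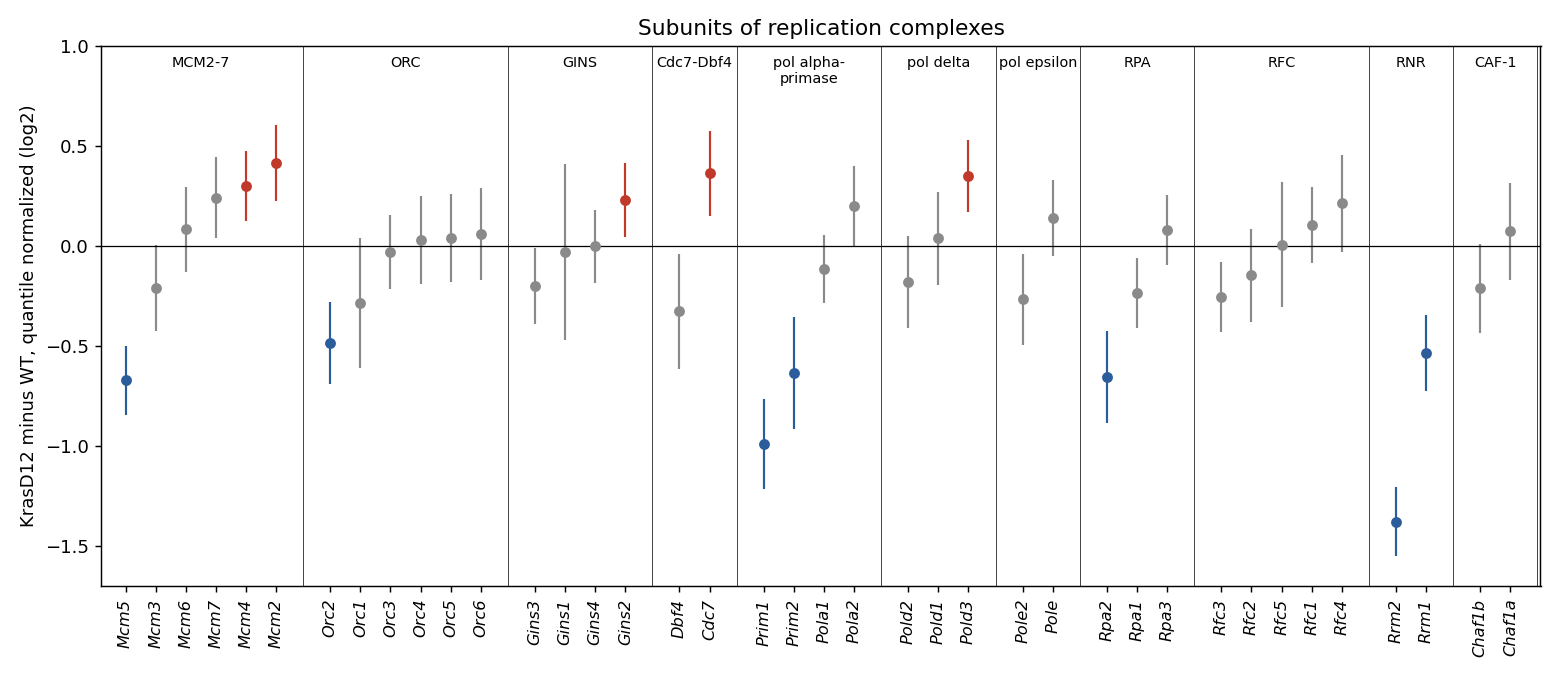
Difference KrasD12 minus WT after quantile normalization (vertical axis, log2) with its 95% interval from limma, for the subunits of 11 complexes (RNR is ribonucleotide reductase). Red marks rose and blue marks fell on both scalings, and grey marks did not pass on both. Mcm5 lies at -0.67 below Mcm2 at 0.42, and Prim1 at -0.99 below Pola2 at 0.20.

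Of the 8 clamp and Okazaki processing genes 1 fell and 0 rose, beside 11.5% and 22.4% of all genes. Pcna, the sliding clamp itself, stood at 8.53 and 8.45 in KrasD12 and 9.20 and 9.04 in WT. Both KrasD12 samples were lower, by 0.63 ± 0.08 or 1.55-fold (limma adjusted p = 0.0026, quantile difference -0.73). The clamp loader RFC, which opens PCNA and closes it around DNA, had 0 of its 5 genes called on both scalings. Rfc4 stood at 7.29 and 7.06 in KrasD12 and 6.69 in both WT samples, a difference of 0.485 called on the deposited values only (0.21 and limma adjusted p = 0.125 after quantile normalization). Rfc1 differed by 0.24 and was called higher as deposited only (limma adjusted p = 0.0383). Rfc3 differed by 0.02 and was called lower only after quantile normalization (-0.26, limma adjusted p = 0.028). Rfc5 (0.185) and Rfc2 (0.07) were called on neither. Lig1, the ligase that joins Okazaki fragments, stood at 7.66 and 7.67 against 7.34 and 7.33, with a difference of 0.33 called on the deposited values and one of 0.12 not called after quantile normalization. Fen1, which trims their flaps, stood at 6.23 and 6.01 in KrasD12 and 6.15 and 5.93 in WT, with the groups overlapping at a difference of 0.08 (95% interval -0.209 to 0.369).

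In the copying of chromatin 1 of 5 members fell and 0 rose, beside 11.5% and 22.4% of all genes. Uhrf1, which brings the maintenance methyltransferase to newly copied DNA, stood at 6.23 and 6.22 in KrasD12 and 7.10 and 6.96 in WT. It fell by 0.805 ± 0.08 or 1.75-fold (limma adjusted p = 0.00116, quantile difference -1.11), with no overlap, and was second in size to Rrm2 among the members that fell. Dnmt1, that methyltransferase, stood at 8.26 and 8.23 in KrasD12 and 8.0 and 7.96 in WT. Its order was opposite to that of Uhrf1, with a difference of 0.265 called on the deposited values and one of 0.11 not called after quantile normalization. Chaf1a and Chaf1b, subunits of the histone chaperone CAF-1, differed by 0.37 and 0.09, and by 0.07 and -0.21 on the quantile scale. In Chaf1a both KrasD12 samples stood at 6.89, against 6.66 and 6.38 in WT, and it was called on the deposited values only.

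A second list, of other replication genes, also held both directions. Of its 51 measured genes (53 were listed) 4 rose (7.84%) and 7 fell (13.7%), with 40 not called on both scalings, beside the 22.4% and 11.5% of all genes given above. Its median difference was 0.17 as deposited and -0.06 after quantile normalization. The widest fall was that of Nme1, a nucleoside diphosphate kinase, at 7.65 and 7.63 in KrasD12 and 8.59 and 8.62 in WT (-0.965). Hat1, which acetylates new histones, stood at 6.49 and 6.36 against 7.36 and 7.2 (-0.855), and Tipin, of the fork protection complex, at 7.25 and 7.01 against 7.68 and 7.83 (-0.625). Samhd1, which degrades deoxyribonucleotides, fell by 0.545 and Umps, of pyrimidine synthesis, by 0.41. Lrwd1, a partner of ORC, rose by 0.84, from 6.92 and 7.03 in WT to 7.76 and 7.87 in KrasD12. Atad5, which takes PCNA off DNA and was dim in WT, rose by 0.80. Rnaseh2b, a subunit of the enzyme that removes ribonucleotides, rose by 0.665. Dctd (-0.24), Dscc1 (-0.305, dim in every sample) and Chtf8 (0.355) are the remaining genes called on both scalings.

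Among 16 measured genes that time the cell cycle, 2 rose (12.5%) and 4 fell (25.0%) on both scalings, beside 22.4% and 11.5% of all genes. The S-phase cyclins Ccne1 and Ccna2 fell by 0.465 and 0.35, and Ccne2, which was dim in both groups, by 0.275. Rb1, the retinoblastoma gene, fell by 0.305. The CDK inhibitor genes Cdkn1b and Cdkn2b rose by 0.70 and 0.61, Cdkn1b from 8.62 and 8.69 in WT to 9.34 and 9.37 in KrasD12. Mki67, a marker of cycling cells, stood at 7.25 and 7.29 in KrasD12 and 7.65 and 7.36 in WT. Its KrasD12 samples lay below WT, and the difference of -0.235 was not called (limma adjusted p = 0.114), while that of -0.47 after quantile normalization was. E2f1 differed by 0.15 and by 0.00 (-0.005) on the quantile scale, with no call on either. Cdk1 (0.275), E2f8 (0.34, dim in WT) and E2f7 (0.245) were called higher on the deposited values only. After quantile normalization they differed by 0.06, -0.06 and -0.08, and E2f2 was called lower there only (-0.39).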

How the data were processed

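The 4 arrays were analysed as 2 groups of 2. The authors deposited 1 value per array row and sample, read as log2 expression from the values, which run from 2.28 to 14.95. The Transcriptome Analysis Console is the 1 tool listed, per the submitters' processing notes, while version, background correction and scaling are not stated there. Of 28944 rows, 21789 had 1 symbol, and 19938 genes were kept. Genes were fitted with limma 3.58.1 in R 4.3.3 (lmFit, eBayes, group as the only term), with Benjamini-Hochberg adjustment over all genes, on the deposited values and again after quantile normalization of all rows. The fit was tested on simulated data. Counts were made with pandas 2.3.3 and plots with matplotlib 3.10.9. Promoter words were counted in RefSeq windows of GRCm38.p6. The number of arrays limits the precision.

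All members were named. Of the 2 further lists, genes called on both scalings were named by size, up to 8 each, and others chosen after their values were seen. The members, the lists, the tests and the alternatives were chosen with earlier results of these data known. The row on a gene's own chromosome was an alternative added after seeing the data. The letters A and B were checked as pairs: across genes the deviations of A from B in the 2 groups correlated at r = 0.013, and nothing in the labels pairs them.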

Additional observations from a re-analysis of the deposited data

How the results depend on the processing

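Of the 15 members called on both scalings, 15 kept their sign under each alternative except the row on the gene's own chromosome, where Tk1 went to 0.01 (0.005). Where a sample was left out this was fixed in advance, since the groups of these members did not overlap. It was also fixed where only the fit or its threshold changed, which leaves the difference as it was. Scaling decided the deposited counts: 18 members higher and 10 lower became 5 and 16 after quantile normalization, 3 and 18 after centring columns on the median, and 4 and 18 after cyclic loess normalization. The median of the members turned from 0.145 to -0.15 (-0.146), -0.20 and -0.16 (-0.165) under these. Over all 19938 genes 9991 higher and 2381 lower became 4485 and 4861 with quantile normalization and 4533 and 4933 with cyclic loess. After centring 10231 of all genes were called in either direction. With centring as the second scaling 3 members rose, Mcm4 and Gins2 being lost, and 10 fell, beside 3574 and 2381 of all genes. At an adjusted p of 0.01, 2 rose and 7 fell. At 1.5-fold or more, the deposited values gave 3 members higher and 4 lower, and 0 rose and 4 fell. No share of all genes is given at these thresholds, so the counts describe the members only. Leaving out 1 sample gave 0 to 8 members higher, 0 to 6 lower, 0 to 0 risen and 0 to 6 fallen, and medians of 0.145 to 0.205; with 3 samples the lone array is assumed to vary like the others, and 1 residual degree of freedom remains.

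With the replicate letter as a replicate block 15 members were higher and 8 lower, and 4 rose and 8 fell on both scalings, Orc2, Gins2 and Rpa2 being lost. Of all genes 4447 rose and 1869 fell with that block. As deposited 39 of the 53 members had a positive difference, beside 14841 of all 19938 genes. After quantile normalization 22 members and 9867 of all genes had one. On the other scalings the sign turned from lower to higher in 0 members. From higher to lower it turned in 17 members after quantile normalization, 17 after cyclic loess normalization and 25 after centring. Those called as deposited or on that scaling were, after quantile normalization, Cdc6 (-0.36), Rfc3 (-0.26), Pola1 (-0.12, or -0.115) and Dut (-0.28). After cyclic loess normalization such members were Cdc6 (-0.39), Rfc3 (-0.27), Pola1 (-0.13), Pole2 (-0.29) and Dut (-0.28). After centring such members were Mcm3 (-0.31), Rfc1 (-0.105), Rfc3 (-0.325), Pola1 (-0.12), Pold1 (-0.065), Pold2 (-0.30), Lig1 (-0.02, or -0.015), Dut (-0.31) and Dnmt1 (-0.08). With the row on the gene's own chromosome Rpa3 went to -0.29, and 17 members were higher and 9 lower. Of all genes 12369 were called in either direction with that row. The cause was not tested.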
